A study of Mus musculus with 21 samples.

Results

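TyrGTA genes encode the transfer RNA that carries tyrosine and reads tyrosine codons through the anticodon GTA (GUA in RNA). They were taken by name: 14 of the 3283 tRNA genes in the Pol III counts end in TyrGTA, 9 of the 1143 genes in the tRNA-seq counts do, and 9 TyrGTA genes had cytosines listed in the bisulphite data. The family was chosen by the bisulphite values of WT and NSun2−/− skin, as a family whose variable loop showed no loss of unconverted cytosines in NSun2−/− mice. Those values are therefore given here as a description with no test of their own, whereas tRNA-seq and Pol III occupancy are separate readouts.

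The data came from mouse skin: RNA bisulphite sequencing and tRNA sequencing with 4 libraries per genotype, and chromatin immunoprecipitation of RNA polymerase III (Pol III ChIP-seq) with 2 WT libraries, 1 NSun2−/− library and 1 input library of each genotype. The mice were males at postnatal day 25 on a mixed C57Bl6/J and CBA F1 background. NSun2−/− mice carried a gene-trap allele on both copies of Nsun2, and WT mice came from the same breedings. Each chromatin sample pooled 3 mice, and with 1 NSun2−/− Pol III library the occupancy values have no replicate check in that genotype.

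NSun2 is an RNA methyltransferase that places 5-methylcytosine on tRNA, mainly where the variable loop meets the TΨC arm. Bisulphite converts unmodified cytosine to uracil and leaves 5-methylcytosine unconverted, so that the percent of unconverted reads at a cytosine measures its methylation together with incomplete conversion. Tyrosine tRNA genes hold an intron that starts 1 base after the anticodon, and a splicing endonuclease and a ligase remove it from the precursor, which also loses its leader and trailer and gains the CCA end.

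Of the 14 genes, 11 were located in the mouse genome (mm9, NCBIM37), 9 by the gene list and 2, chr13.trna959 and chr3.trna240, only by sequence and order along the strand, and 10 of the 11 had the common pattern of a 37-nt 5′ exon, an intron and a 36-nt 3′ exon. Counted from the first base of the spliced tRNA, the anticodon lies at bases 34 to 36 and the last base of the variable loop is C48. The 10 introns were 13 to 20 nt long and all differed in sequence, while there were 3 distinct 5′ exons and 4 distinct 3′ exons. Genes with near-identical exons share most of their mature sequence, so a read from an exon often cannot be assigned to 1 gene. Exceptions are reads over a base that only 1 of these genes holds, such as C at base 59 in chr3.trna27. A read that holds intron sequence can be assigned.

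All 6 chromosome 13 genes lay within 41520 bp, and chr3.trna27 and chr3.trna28 lay 334 bp apart. In the GENCODE vM1 annotation chr3.trna27 fell inside the protein-coding gene 1700064H15Rik, on the opposite strand and outside its exons. The locus taken as chr13.trna959 overlapped the processed transcript C230035I16Rik outside its exons, and the remaining located genes lay between genes, chr5.trna109 523 bp from Agbl5 and chr14.trna191 1499 bp from Rnase4.

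Libraries were checked first against the targeted gene. Nsun2 had 31, 23, 48 and 43 listed cytosines in the 4 WT bisulphite libraries and 0 in each of the 4 NSun2−/− libraries, where a cytosine is listed from 10 reads. The libraries held 176613, 156018, 196679 and 187471 listed cytosines in WT and 665049, 110324, 658169 and 385574 in NSun2−/−, so that NSun2−/− library 2 was the shallowest of all and NSun2−/− libraries 1 and 3 were the deepest. The share of unconverted reads over all listed cytosines was 19.2, 16.9, 20.1 and 19.9% in WT and 9.27, 16.8, 9.01 and 8.32% in NSun2−/−, with NSun2−/− library 2 apart from the other 3.

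C48 was unconverted less often in NSun2−/− skin than in WT skin, on average over the TyrGTA genes, so the values went against a variable loop without loss. The mean over genes with at least 10 reads was 34.6, 31.4, 28.1 and 40.3% in WT and 23.2, 30.8, 14.2 and 16.5% in NSun2−/− (33.6% ± 5.17 and 21.2% ± 7.44, SD, n = 4 each), a difference of -12.4 percentage points. NSun2−/− library 2 lay within the WT range and the other 3 lay below every WT library. The genes covered differed between libraries. Over the 6 genes with C48 listed in all 8 libraries the difference was -16.0 points. NSun2−/− library 2 then stood at 30.8%, just below the lowest WT library at 31.3%. After subtracting the other cytosines of the same genes in the same library, C48 stood at 27.9, 25.5, 22.5 and 30.4% in WT and 15.5, 8.47, 9.94 and 8.45% in NSun2−/−, and the genotypes did not overlap. These values chose the family and carry no test.

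The fit over all cytosines was edgeR's quasi-likelihood test on unconverted and converted reads, with a call at an adjusted p under 0.05 and at least 10 percentage points. It called 320 of 122736 cytosines (0.261%), and 0 of the 144 TyrGTA cytosines tested, of which 6 had an unadjusted p under 0.05, and no other tool was run on them. Without NSun2−/− library 2 it called 335 of 122259 cytosines, and 1 of the 144 TyrGTA cytosines tested. The contrast is the one that chose the family, and nothing is read from these counts.

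**Figure D1:**
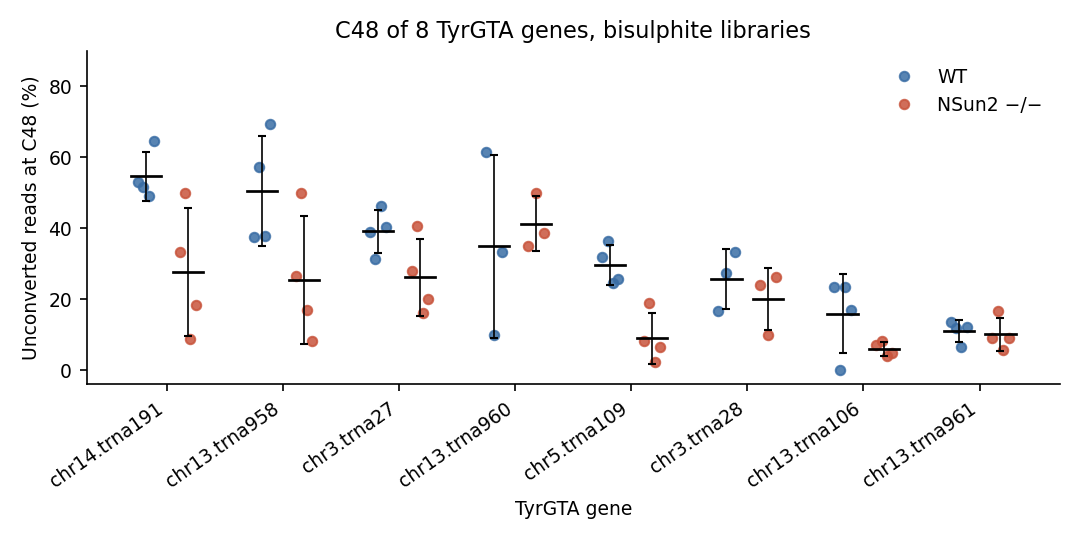
Percent of unconverted reads at C48 (y axis) for 8 TyrGTA genes (x axis) in WT (blue) and NSun2−/− (red) bisulphite libraries. Points are libraries with at least 10 reads, black lines the mean and bars the SD, and for 7 of the 8 genes the NSun2−/− mean lay below the WT mean.

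Among 8 genes with C48 covered in at least 3 libraries of each genotype, the NSun2−/− mean was lower for 7. C48 of chr5.trna109 stood at 32.02, 36.3, 24.5 and 25.7% in WT and 8.20, 18.9, 2.21 and 6.52% in NSun2−/−, and the genotypes did not overlap. This gene was the deepest, with 300 to 339 reads at C48 in WT and 132 to 859 in NSun2−/−. C48 of chr14.trna191 stood at 52.9, 51.7, 48.98 and 64.7% in WT and 33.3, 50.0, 8.86 and 18.4% in NSun2−/−, which overlapped through NSun2−/− library 2. C48 of chr3.trna27 stood at 38.96, 31.3, 46.2 and 40.2% in WT and 28.0, 40.7, 16.0 and 20.2% in NSun2−/−, again with only NSun2−/− library 2 within the WT range.

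The chromosome 13 genes had fewer reads at C48 than chr5.trna109 in each library. C48 of chr13.trna958 stood at 37.5, 57.1, 37.9 and 69.2% in WT and 26.6, 50.0, 17.1 and 8.33% in NSun2−/−. C48 of chr13.trna106 stood at 23.3, 0, 23.5 and 16.98% in WT and 7.14, 8.33, 4.08 and 4.84% in NSun2−/−, where the 0 came from 14 reads. C48 of chr13.trna961 was low in both genotypes, at 13.7, 11.8, 6.67 and 12.2% in WT and 9.09, 16.7, 5.71 and 8.97% in NSun2−/−, and its difference of -0.968 points became 0.498 without NSun2−/− library 3.

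Of the remaining pair, chr13.trna960 alone had a higher NSun2−/− mean, with 61.5, 10 and 33.3% in WT libraries 1, 3 and 4 and 35.1, 50.0 and 38.7% in NSun2−/− libraries 1, 3 and 4. Its difference of 6.30 points became -6.18 without WT library 3, where C48 had 20 reads. C48 of chr3.trna28 stood at 16.7, 27.3 and 33.3% in WT libraries 1, 3 and 4 and at 24.1, 10 and 26.2% in NSun2−/− libraries 1, 3 and 4, and overlapped. Neither gene had 10 reads at C48 in library 2 of either genotype.

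Of 136 other cytosines of the TyrGTA genes with the same coverage, 26 had a lower NSun2−/− mean, against 7 of 8 at C48. This count depended on single libraries, at 53 of 136 without NSun2−/− library 2 and 17 without NSun2−/− library 3. C50, the nearest cytosine in the TΨC arm, stood at 16.999, 9.47, 10.9 and 19.5% in WT and 17.1, 30.1, 10.6 and 16.5% in NSun2−/− on average over genes. The 5′ exon, averaged over its cytosines, stood at 1.43, 1.99, 1.90 and 3.66% in WT and 2.46, 12.7, 0.412 and 4.28% in NSun2−/−. NSun2−/− library 2 was the highest and NSun2−/− library 3 the lowest of that genotype in both regions. Without NSun2−/− library 2 the difference at C50 went from 4.36 to 0.517 points and that of the 5′ exon from 2.72 to 0.137 points.

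Position 49 is not a cytosine in these genes, so C48 is the only cytosine of the pair 48 and 49. For comparison, the mean unconverted level of C48 over genes and over 4 libraries fell from 91.5 to 33.3% in AspGTC, from 92.4 to 42.4% in GlyGCC and from 58.5 to 18.01% in LeuCAA between WT and NSun2−/−. TyrGTA thus had the lowest WT level at C48 of these 4 families, at 33.6%. In LeuCAA the NSun2−/− libraries stood at 11.2, 41.6, 9.59 and 9.66%, so its NSun2−/− mean was raised by library 2. The difference between families was not tested.

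**Figure D2:**
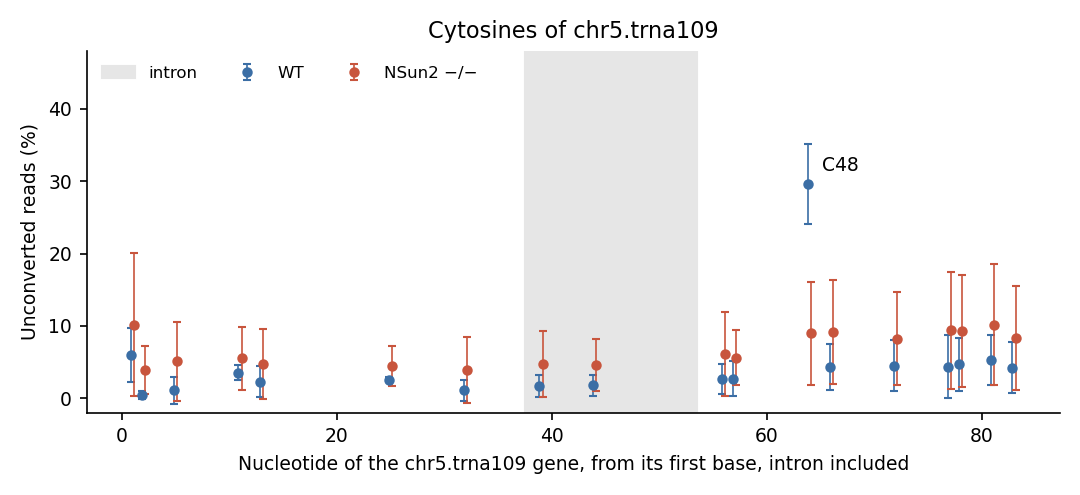
Percent of unconverted reads (y axis) at each cytosine of chr5.trna109 (x axis, nucleotide of the gene with its intron shaded) in WT (blue) and NSun2−/− (red) libraries. Points are means and bars the SD over 4 libraries per genotype, and C48 stands apart in WT at 29.6% against 8.97% in NSun2−/−.

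The introns were covered by bisulphite reads as well. Averaged over cytosines, so that genes with more of them weighed more, the introns stood at 9.62, 8.59, 13.7 and 11.96% in WT and 8.84, 24.1, 6.27 and 11.4% in NSun2−/−. The genotypes overlapped. The difference of 1.68 points became -2.13 points without NSun2−/− library 2, the direction of C48. In chr14.trna191, 3 intron cytosines stood below the 54.6% of its C48 in WT and near the 27.7% of its C48 in NSun2−/−. Counted from the first base of the intron, cytosine 16 stood at 34.5, 20.7, 46.7 and 32% in WT and 29.3, 54.9, 21.2 and 30.7% in NSun2−/−, cytosine 8 at 31.6, 22.2, 43.3 and 25% and 26.8, 53.1, 17.05 and 27.2%, and cytosine 17 at 33.96, 28.6, 44.3 and 27.7% and 26.95, 48.98, 20.2 and 29.9%. NSun2−/− library 2 was the highest of all 8 libraries at each. The differences of 0.485, 0.545 and -2.09 points at cytosines 8, 16 and 17 had no fixed direction. They were -6.86, -6.42 and -7.91 points without NSun2−/− library 2, 5.14, 4.82 and 1.67 without NSun2−/− library 3, -2.29, -3.71 and -3.77 without WT library 2, and 4.75, 4.95 and 1.46 without WT library 3. Without WT library 4 the difference at cytosine 8 was -1.36. In the other genes, among intron cytosines covered in at least 3 libraries of each genotype, the highest were numbers 8 and 10 of chr3.trna27, with means of 19.01 and 19.7% in WT and 16.9 and 14.6% in NSun2−/−. The lower mean of cytosine 8 turned into a difference of 1.98 points without WT library 3, 0.764 without NSun2−/− library 3 and 0.046 without NSun2−/− library 4. At cytosine 10 the difference of -5.10 points became -0.356 without WT library 3 and -9.77 without WT library 1. The intron of chr5.trna109 was nearly fully converted, with means of 1.70 and 1.78% in WT and 4.75 and 4.60% in NSun2−/− at its cytosines 2 and 7. Without NSun2−/− library 2 the NSun2−/− means were 2.56 and 2.95%. The differences then went from 3.05 and 2.82 points to 0.863 and 1.16 points.

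Skin markers were present in all bisulphite libraries. Keratinocyte genes (Krt5, Krt14, Krt1 and Krt10) had 899, 752, 1019 and 896 listed cytosines in WT and 1144, 732, 1284 and 1115 in NSun2−/−, with Krt5 highest in 7 libraries and level with Krt14 in WT library 4. Dermal fibroblast genes (Col1a1, Col1a2 and Col3a1) had 3895, 3887, 3640 and 3565 in WT and 4513, 3540, 4404 and 4369 in NSun2−/−, with Col1a1 highest in each library. Skeletal muscle genes (Acta1, Ckm and Mylpf) had 600, 712, 647 and 530 in WT and 842, 769, 872 and 836 in NSun2−/−, so that all 4 NSun2−/− libraries were above the WT libraries. Mylpf was at 0 in WT libraries 1 and 4 and had at least 48 listed cytosines in each NSun2−/− library, and all other marker genes were listed in all 8 libraries. The part of muscle tissue or depth in the TyrGTA values was not tested, and in whole skin fewer cells of a type and less RNA per cell cannot be told apart.

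TyrGTA reads were a small share of the tRNA-seq libraries. They came to 12575, 15363, 13267 and 12506 counts in WT and 17718, 8589, 10212 and 8597 in NSun2−/−, out of library totals of 17944789, 17352126, 24270307 and 22429614 in WT and 19867441, 36749727, 23665102 and 17556844 in NSun2−/−. In CPM, counts scaled to an equal library total, this was 701, 885, 547 and 558 in WT and 892, 234, 432 and 490 in NSun2−/−, rank 30 of 60 families by mean level. NSun2−/− library 1 was the highest and NSun2−/− library 2 the lowest of all 8, and the genotypes overlapped. The log2 fold change relative to the other families was 0.00 (SE 0.29, edgeR adjusted p = 0.995, trimmed-mean normalisation), in a fit that called 10 of 50 families (20.0%), and scaled to the library total it was -0.39, where the median of all families stood at -0.38.

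Of the TyrGTA counts, 82.4% were reads of the 3′ exon that ended in the added CCA, 10.6% started at the first base of the 5′ exon and 0.976% held intron sequence. The most abundant were 3 CCA-ended reads, shown because they carry the mismatch that most TyrGTA reads shared. The mismatch A58T, counted from the first base of the spliced tRNA, and the CCA are in capitals.
CCA read of 22 nt: tcgTttccggctcgaaggaCCA
CCA read of 30 nt: tcgctggttcgTttccggctcgaaggaCCA
CCA read of 29 nt: cgctggttcgTttccggctcgaaggaCCA

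They had 961, 1689, 1611 and 1546 counts in WT and 1936, 1780, 1481 and 610 in NSun2−/− for the read of 22 nt, 1195, 1182, 1234 and 1273 in WT and 2105, 1130, 922 and 1143 in NSun2−/− for that of 30 nt, and 1351, 1156, 831 and 792 in WT and 2209, 467, 610 and 532 in NSun2−/− for that of 29 nt. In each of the 3, NSun2−/− library 1 was the highest of all and the genotypes overlapped. Bases at 58 were compared among reads that started before base 56 and held no intron or trailer. Base 58 read as another base than A in 99.2, 99.2, 99.0 and 99.3% of these reads in WT and in 99.5, 99.1, 98.9 and 98.8% in NSun2−/−. Base 58 of tRNA is a known site of 1-methyladenosine, which reverse transcriptase misreads, and the share misread did not separate the genotypes (exact permutation p = 0.457, adjusted p = 0.724 over 8 added measures, lower mean in NSun2−/−, whose libraries overlapped WT). The shares of T and of G did not overlap between genotypes, whereas those of A and C did. T made up 84.34, 79.4, 83.1 and 83.7% in WT and 87.4, 84.998, 84.37 and 86.0% in NSun2−/−, and G 14.9, 19.8, 15.9 and 15.6% in WT and 11.9, 13.7, 14.6 and 12.7% in NSun2−/−. These shares were not tested.

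CCA-ended fragments of 25 to 40 nt stood at 506, 508, 289 and 331 CPM in WT and 556, 103, 213 and 289 in NSun2−/−, and overlapped. All families together fell more: their CCA-ended fragments were 2.54, 4.88, 1.96 and 2.73% of all counts in WT and 1.25, 0.475, 1.05 and 1.28% in NSun2−/−. TyrGTA was therefore a larger part of them, at 1.99, 1.04, 1.48 and 1.21% in WT and 4.46, 2.18, 2.03 and 2.26% in NSun2−/−, with all 4 NSun2−/− libraries above the highest WT library. Relative to the other families TyrGTA was higher by a log2 fold change of 0.87 (SE 0.24, edgeR adjusted p = 0.0309), in a fit that called 6 of 39 families (15.4%), but scaled to the library total it was -0.49 (edgeR adjusted p = 0.406), where the median of all families stood at -1.55. With all libraries and any of the other settings, DESeq2 among them, the adjusted p lay between 0.00627 and 0.0377. The call was lost without WT library 2 (log2 fold change 0.67, edgeR adjusted p = 0.245), WT library 3 (0.79, 0.161), WT library 4 (0.88, 0.0643), NSun2−/− library 1 (0.64, 0.0553) or NSun2−/− library 3 (0.85, 0.132).

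Reads of 25 to 40 nt from the first base, the 5′ fragments, stood at 17.1, 64.8, 66.0 and 38.3 CPM in WT and 76.2, 24.7, 55.4 and 68.5 in NSun2−/−. WT library 1 was the lowest and NSun2−/− library 1 the highest, and the genotypes overlapped. The log2 fold change of 0.36 (SE 0.42, edgeR adjusted p = 0.490) was smaller than its error with all libraries, in a fit that called 11 of 42 families (26.2%). Scaled to the library total it was 0.27, and with no mismatch allowed 0.14. It was 0.09 without WT library 1, 0.51 without WT library 2, 0.58 without WT library 3, 0.25 without WT library 4, 0.23 without NSun2−/− library 1, 0.60 without NSun2−/− library 2, 0.36 without NSun2−/− library 3 and 0.16 without NSun2−/− library 4, with edgeR adjusted p-values between 0.271 and 0.921.

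The place where 5′ reads ended was compared as well. Most ended at base 25, 32 or 33, and 32 and 33 are the bases of the anticodon loop directly before the anticodon. Of the reads that ended at 32 or 33, those ending at 32 made up 19.5, 20.8, 34.9 and 28.5% in WT and 61.6, 49.6, 55.0 and 50.3% in NSun2−/− (25.9% ± 7.18 and 54.1% ± 5.55, SD, n = 4 each). All 4 NSun2−/− libraries lay above all WT libraries (exact two-sided permutation p = 0.0286, the smallest that 4 against 4 can give, and 0.0762 when adjusted over 8 measures that were added after the reads had been seen, which did not pass 0.05). With any 1 library left out the difference was 25.7 to 31.2 points.

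A single read that ended at base 32 is shown as an example. It matched the 5′ exon of chr14.trna191, which chr3.trna27 and chr3.trna28 share. It was called by DESeq2. It lacks a G at base 26, counted from the first base, or at the base after it, which is also G. Such a loss was counted at base 26.
5′ read of 31 nt, as in chr14.trna191: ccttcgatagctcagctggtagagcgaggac

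This read had 0, 19, 19 and 39 counts in WT and 159, 59, 99 and 139 in NSun2−/−, or 0, 1.09, 0.783 and 1.74 CPM in WT and 8.003, 1.61, 4.18 and 7.92 CPM in NSun2−/−. In CPM the genotypes overlapped, with WT library 4 above NSun2−/− library 2, and 3 of 4 NSun2−/− libraries lay above all WT libraries. The log2 fold change was 2.81 (SE 1.09, edgeR adjusted p = 0.270), which did not pass in edgeR. DESeq2 gave 2.85 with an adjusted p of 0.0360. Base 26 of tRNA is a known site of dimethylguanosine. With a missing G of the pair counted there, it was missing or read as another base than G in 93.7, 82.5, 86.0 and 85.2% of the 5′ reads over it in WT and in 84.5, 88.0, 88.9 and 91.3% in NSun2−/−, which overlapped.

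The 5′ reads that matched the 5′ exon of chr5.trna109, which chr13.trna101 and other chromosome 13 genes share, were the most abundant that ended near the anticodon. They are shown, with the most abundant 5′ read of all, which ends at base 25 and lacks base 20.
5′ read of 24 nt: ccttcgatagctcagctggagagc
5′ read of 32 nt, as in chr5.trna109: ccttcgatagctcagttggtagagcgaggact
5′ read of 31 nt, as in chr5.trna109: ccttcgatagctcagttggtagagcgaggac

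The read of 24 nt had 111, 207, 223 and 95 counts in WT and 255, 127, 127 and 175 in NSun2−/−. Of the reads that matched the exon shared by chr5.trna109 and chromosome 13 genes, that which ended at 33 had 0, 191, 335 and 215 counts in WT and 119, 143, 215 and 95 in NSun2−/−. The read that ended at 32 had 29, 59, 179 and 59 in WT and 239, 119, 149 and 119 in NSun2−/−. All 3 overlapped, and their edgeR adjusted p-values were 0.832, 0.970 and 0.471, with log2 fold changes of 0.32 (SE 0.46), -0.21 (SE 1.14) and 1.11 (SE 0.61).

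Reads that held intron sequence, and so came from unspliced precursors or pieces of them, were a smaller share of TyrGTA reads in NSun2−/− skin. With at least 3 nt of intron they made up 0.867, 1.93, 1.37 and 1.47% of TyrGTA counts in WT and 0.333, 0.279, 0.421 and 0.791% in NSun2−/− (1.41% ± 0.435 and 0.456% ± 0.231, SD, n = 4 each), a difference of -0.953 points. All 4 NSun2−/− libraries lay below the lowest WT library (exact two-sided permutation p = 0.0286). Without WT library 2 the difference was -0.781 points and the exact permutation p 0.0571, and it was also 0.0571 without NSun2−/− library 1, 2, 3 or 4 (-0.912, -0.894, -0.941 and -1.06 points). In CPM the intron reads stood at 6.07, 17.1, 7.50 and 8.20 in WT and 2.97, 0.653, 1.82 and 3.87 in NSun2−/− (exact permutation p = 0.0286), again with no overlap. Reads with leader or trailer but no intron were not lower on average. They made up 0.262, 0.410, 0.384 and 0.480% of TyrGTA counts in WT and 0.293, 0.815, 0.568 and 0.314% in NSun2−/−. Their genotypes overlapped and were not tested.

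**Figure D3:**
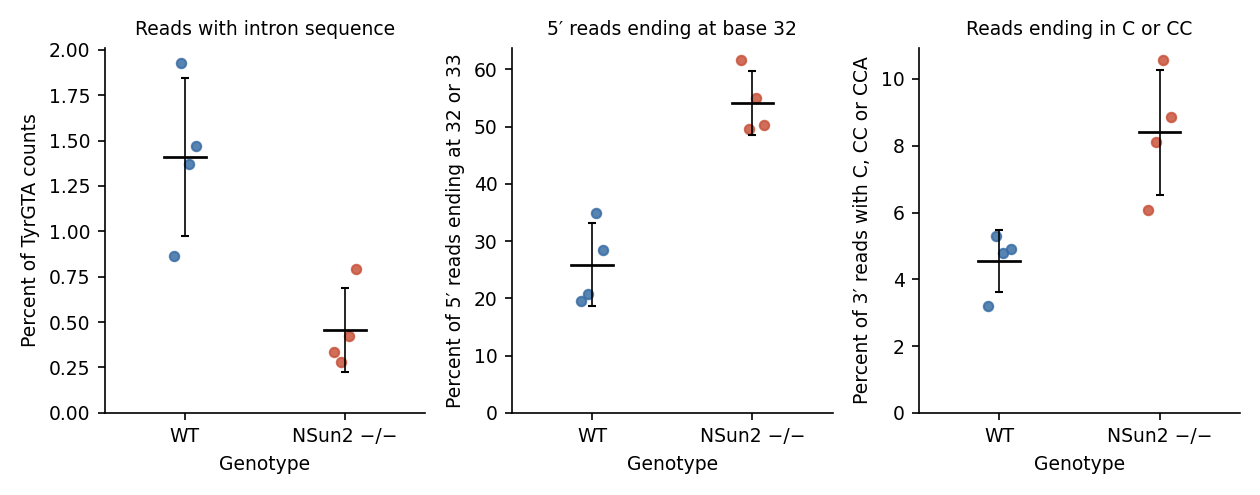
Shares of TyrGTA reads (y axes, percent) by genotype (x axes): reads with intron sequence, 5′ reads that end at base 32 among those ending at 32 or 33, and 3′ exon reads that end in C or CC among those ending in C, CC or CCA. Points are libraries, black lines the mean and bars the SD, and in each panel the 4 NSun2−/− libraries do not overlap the 4 WT libraries.

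Because each intron differs, the intron reads name their gene, and there were 9 sequences from 3 genes. Summed over its sequences, chr3.trna27 had 48, 221, 66 and 117 intron counts in WT and 1, 1, 6 and 35 in NSun2−/−. The sums of chr13.trna106 were 24, 34, 55 and 31 in WT and 16, 4, 4 and 11 in NSun2−/−. The sums of chr5.trna109 were 37, 41, 61 and 36 in WT and 42, 19, 33 and 22 in NSun2−/−. The genotypes did not overlap for the first pair of genes and overlapped for chr5.trna109. Without the chr3.trna27 sequences the share was 0.485, 0.488, 0.874 and 0.536% in WT and 0.327, 0.268, 0.362 and 0.384% in NSun2−/−, a difference of -0.261 points (exact permutation p = 0.0286).

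The fit over single sequences called 316 of 12871 sequences (2.46%) and, by edgeR, 0 of the 118 TyrGTA sequences tested, 4 of which had an unadjusted p under 0.05. The count over all sequences was not stable, at 210 without WT library 1, 0 without WT library 2, WT library 3 or NSun2−/− library 1, 1 without WT library 4, 33 without NSun2−/− library 2, 16 without NSun2−/− library 3 and 49 without NSun2−/− library 4, and TyrGTA had 0 in each. DESeq2 called 3 of the 118, and 1250 of all.

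Of 3′ exon reads that ended in C, CC or CCA, those ending in C or CC, a CCA end that lacked its last base or bases, were 3.21, 5.29, 4.79 and 4.90% in WT and 6.07, 8.10, 10.6 and 8.87% in NSun2−/− (exact permutation p = 0.0286, adjusted p = 0.0762 over the 8 added measures, higher in 4 of 4 libraries), and the adjusted p did not pass. Without WT library 1, 2, 3 or 4 the difference of 3.85 points was 3.41, 4.10, 3.93 or 3.97 points and the unadjusted exact permutation p was 0.0571 each time. The same share over all other families was 6.69, 4.99, 8.70 and 8.28% in WT and 12.98, 19.1, 14.6 and 12.1% in NSun2−/−, which did not overlap either, so the difference was not particular to TyrGTA. Among reads over base 59, where the genes differ, T was read in 75.5, 71.6, 76.9 and 76.6% in WT and 80.5, 87.6, 85.4 and 80.9% in NSun2−/− (exact permutation p = 0.0286, adjusted p = 0.0762, higher in 4 of 4 libraries), and without WT library 2 the difference was 7.24 points and the unadjusted exact permutation p 0.0571. The other 4 measures, the bases at 16, 20 and 26 and the share of CCA-ended reads that start at or before base 48, had exact permutation p-values of 0.543, 0.514, 0.657 and 0.886, adjusted p-values of 0.724, 0.724, 0.751 and 0.886, differences of -4.73, -3.28, 1.34 and 0.668 points, and genotypes that overlapped.

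The deposited counts of 147 of 183 TyrGTA sequences with counts in at least 3 libraries could be written as whole multiples of a common step above 2, each product rounded down to a whole count, so that a count may lie 1 below the multiple. The step was 13 for 27 and 26 for 17 of the CCA-ended sequences. Such sequences held 94.5% of TyrGTA counts but 1 of 8 intron sequences, so a share across classes depends on the weight of each sequence. With each count divided by its step the intron share was 7.21, 11.7, 10.3 and 10.5% in WT and 2.59, 1.86, 2.58 and 4.03% in NSun2−/−, the share ending at base 32 was 14.3, 22.2, 39.3 and 36.3% and 62.4, 58.7, 62.2 and 56.7%, and the share ending in C or CC was 21.8, 28.9, 30.5 and 31.9% and 36.1, 41.9, 49.3 and 46.1%. None of these 3 overlapped (exact permutation p = 0.0286 each). T at base 59 then overlapped, at 81.8, 72.0, 85.5 and 84.6% in WT and 85.7, 91.6, 90.9 and 83.4% in NSun2−/− (exact permutation p = 0.114).

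Across the 8 libraries the families whose CPM were most like those of TyrGTA by Pearson r were LeuTAA (Pearson r = 0.98, Spearman rho = 0.93), ProCGG (r = 0.98, rho = 0.98) and AlaTGC (r = 0.91, rho = 0.76), out of 49 other families with a median r of 0.636. By Spearman rho AlaTGC lay below other families, among them ArgTCG and ArgACG (rho = 0.86 each). The points share their libraries and library totals, and the values are a description.

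Pol III transcribes tRNA genes, and its counts at a gene measure occupancy. It was bound at 9 of the 14 TyrGTA genes and at 222 of all 3283 genes, where a bound gene had 10 or more reads in each WT library and a WT level 2-fold or more above input. A further gene, chr13.trna959, had enough reads but stood 1.40-fold over input. The gene chr14.trna191 had the highest occupancy of all 3283 predicted tRNA genes in each of the 3 libraries, at 9195 and 12845 CPM in WT and 15529 in NSun2−/−. Next within the family, by the mean of both WT libraries, came chr3.trna27 with 4123 and 3896 in WT and 4237 in NSun2−/−. It was followed by chr5.trna109 with 3526 and 3881 in WT and 4921 in NSun2−/−. The order of Pol III occupancy was not that of the tRNA-seq counts, of which 82.9% were listed at chr5.trna109 and 7.32% at chr14.trna191, with multiply matching reads distributed by the authors.

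The other genes stood lower by the mean of both WT libraries. chr3.trna28 had 2387 and 4641 CPM in WT and 4637 in NSun2−/−, chr13.trna958 2631 and 3675 in WT and 4721 in NSun2−/−, and chr13.trna106 3092 and 2803 in WT and 2576 in NSun2−/−. The remaining 4 chromosome 13 genes, chr13.trna961, chr13.trna101, chr13.trna960 and chr13.trna959, had between 137 and 1330 CPM in any library. The last 4 of the 14 genes had at most 15 reads in a WT library.

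Together the 14 genes took 2.89 and 3.53% of the counts in WT and 3.96% in NSun2−/−, out of 36866, 63136 and 95112 counts in the 3 libraries, and 68 and 75 counts in the inputs. The NSun2−/− library was above both WT libraries by a log2 ratio of 0.46 and 0.17, and the WT libraries differed from each other by 0.29. Against the mean of both WT libraries the log2 ratio of the summed counts was 0.30, beside 0.22 for the sum over all 222 bound genes. The median over single genes was 0.04 for the 10 TyrGTA genes with enough reads, beside 0.16 over the 222 bound genes. Of the 222, 3 changed at least 2-fold (1.35%), and 0 of the 9 bound TyrGTA genes did. With 1 NSun2−/− library no test was made.

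Among the 10 genes with enough reads the NSun2−/− library was above both WT libraries at 4 and below both at 4. Over all 296 tRNA genes with enough reads it was above both at 125 and below both at 67. The size of the ratio at the TyrGTA genes depended on the WT library. The log2 ratio to WT library 1 and to WT library 2 was 0.75 and 0.27 at chr14.trna191, 0.03 and 0.12 at chr3.trna27, 0.47 and 0.34 at chr5.trna109, 0.94 and -0.00 at chr3.trna28, 0.83 and 0.36 at chr13.trna958, and -0.27 and -0.12 at chr13.trna106. It was -0.32 and -0.46 at chr13.trna961, 0.14 and -0.12 at chr13.trna101, and -0.96 and -0.12 at chr13.trna960. At chr13.trna959 it was -1.26 and -0.24, from 12 and 10 reads in WT and 13 in NSun2−/−.

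**Figure D4:**
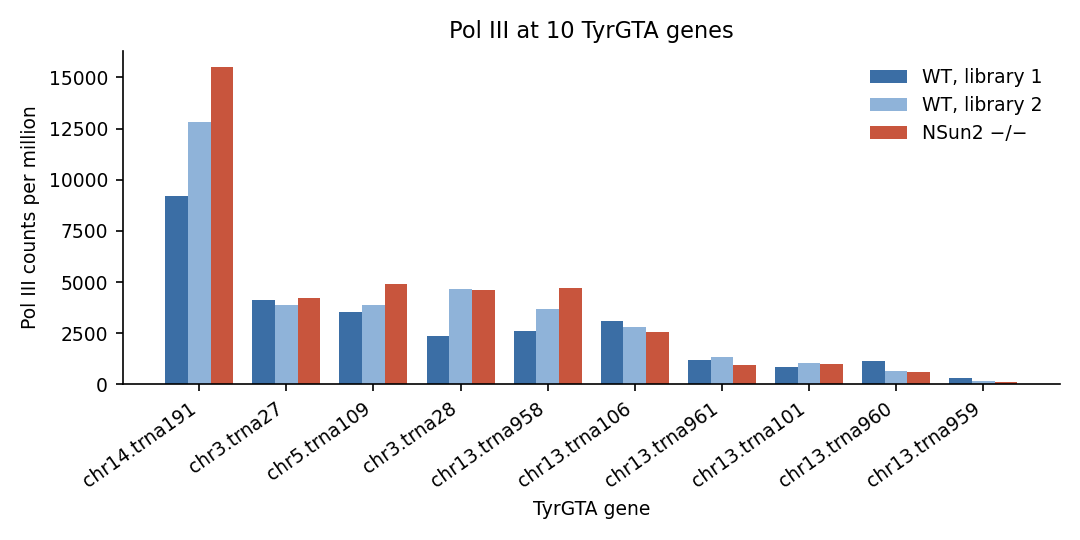
Pol III CPM (y axis) at the 10 TyrGTA genes that had 10 or more reads in each WT library (x axis), for the 2 WT libraries (blue, light blue) and the NSun2−/− library (red). Each bar is 1 library, and chr14.trna191 was the highest in all 3.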

How the data were processed

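The tRNA-seq counts of each sequence and the Pol III counts of each gene were made by the authors from reads aligned with Bowtie, and the counts were used as deposited. The percent of unconverted reads at each cytosine was made by the authors with Bismark 0.7.6 and used as deposited, and converted and unconverted reads were taken from it and its coverage. The members and the lists of genes were chosen with earlier results of these data known. Genes are named where C48 was covered, where Pol III had 10 or more reads in each WT library, or for their location, and the single sequences shown are among those that led their class or had an unadjusted p under 0.05. Reads were placed on the genes with up to 4 differences by edlib 1.3.9.post1. Fits over all families, sequences and cytosines were made with edgeR 4.0.16 and, for tRNA-seq, DESeq2 1.42.0, with p-values adjusted by Benjamini and Hochberg over everything tested. Shares of reads were compared by exact two-sided permutation over libraries. Python 3.11.15, pandas 2.3.3, pysam 0.24.0, matplotlib 3.10.9 and R 4.3.3 were used.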

Additional observations from a re-analysis of the deposited data

Results flagged for a closer look

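Of 61 groups of 4 libraries, 2 held 1 library far from the other 3, and both were NSun2−/− bisulphite library 2. Its unconverted reads over all cytosines were 16.8%, against 8.32 to 9.27% in the other NSun2−/− libraries. Its dermal fibroblast genes had 3540 listed cytosines, against 4369 to 4513. Each was singled out because its distance from the other 3 libraries was large beside their spread. Chance alone singles out about 1 in 20 groups.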

How the results depend on the processing

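Bisulphite libraries differed in depth, C48 sites outside chr5.trna109 had at most 92 reads in a WT library, and 1 NSun2−/− Pol III library gives no replicate error. TyrGTA reads depend on how the authors distributed multiply matching reads and on common steps in the counts. Removing steps, leaving out the chr3.trna27 reads, intron reads in counts per library total, C48 of genes covered in all 8 libraries, the 8 added measures and leaving libraries out at cytosines other than C48 were chosen after the data had been seen. Replicate numbers did not pair the libraries.

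The mean C48 difference stayed between -15.6 and -10.1 points with any 1 library left out. The number of TyrGTA cytosines called ran from 0 to 1. For all TyrGTA reads the log2 fold change near 0 was -0.39 scaled to the library total, -0.0054 without a filter, -0.11 with replicate block as a term, and -0.33 to 0.081 with 1 library left out. CCA-ended fragments were -0.49 scaled to the library total and 0.64 to 1.01 with 1 library left out. The difference in intron share ran from -1.13 to -0.781 points with 1 library left out, and was -0.261 without the chr3.trna27 sequences and -7.15 with steps removed. DESeq2 called 3 TyrGTA sequences where edgeR called 0, and with replicate block as a term edgeR called 0 of all sequences.

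The CCA reads of 22, 30 and 29 nt had log2 fold changes of 0.15, 0.32 and 0.06, and scaled to the library total of -0.23, -0.0094 and -0.23. With replicate block as a term, the read of 29 nt was -0.21, and with 1 library left out it ran from -0.71 to 0.31. The 5′ read of 32 nt, at -0.21, was 0.45 with replicate block and -0.60 to 0.26 with 1 library left out. Base 58 not A differed by -0.115 points, and by 0.179 with steps removed. With 1 library left out, base 16 ran from -10.01 to -1.49 points, base 20 from -5.84 to -0.0341, base 26 from -0.0942 to 3.62 points and starts at or before base 48 from -2.46 to 4.37 points. Intron cytosines ran from -2.13 to 3.80 points, cytosines 8, 16 and 17 of the chr14.trna191 intron from -6.86 to 5.14, -6.42 to 4.95 and -7.91 to 1.67, and cytosine 8 of the chr3.trna27 intron from -6.48 to 1.98. The cause was not tested for any of these.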
